A study of Mus musculus with 3 samples.

Results

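Heat-shock-high T cells were T cells from mouse tumours that carried many transcripts of Hspa1a and Hspa1b, the paired genes for the stress-inducible form of the chaperone HSP70. They were chosen from the raw UMI counts, a UMI being a molecular identifier that marks 1 captured transcript. A cell needed at least 500 detected genes, at most 10% mitochondrial UMIs, 1 dominant hashtag (at least 150 UMIs and at least 3 times the other), at least 1 UMI of the T cell receptor component Cd3e, and at least 15 UMIs of Hspa1a and Hspa1b together. This gave 190 cells of 19912 barcodes, 169 from B16-Ova tumours and 21 from MC38-Ova tumours. They are described against 13397 comparison cells (5635 from B16-Ova and 7762 from MC38-Ova) that met the same conditions but held at most 2 UMIs of Hspa1a and Hspa1b. Another 526 T cells held 3 to 14 UMIs.

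The T cells came from subcutaneous B16-Ova or MC38-Ova tumours of C57BL/6 mice, taken on day 14 and sorted as TCRβ+ CD3+ CD90.2+ CD11b− cells. B16 is a melanoma line and MC38 a colon carcinoma line, and Ova in each name denotes the model antigen ovalbumin. All cells went through 1 droplet capture, in which hashtag 1 marked the B16-Ova pool and hashtag 2 the MC38-Ova pool. Antibody tags for PD-1 and Tim-3 and a tag for the lectin L-Pha, which binds branched N-glycans, were counted in the same cells. Age, sex and the number of mice behind each hashtag were not given in the sources used here. Each tumour was therefore 1 pool, so no comparison has a replicate check, every interval covers counting error only, and no p-value is given. The Hspa1a and Hspa1b values chose the cells, so these and all differences in RNA between the heat-shock-high and comparison cells are given as a description.

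HSP70 proteins bind exposed hydrophobic stretches of unfolded proteins and release them in cycles driven by ATP. J-domain proteins such as Dnajb1 deliver clients and stimulate ATP hydrolysis, and the HSP110 protein Hsph1 exchanges the nucleotide so that the client is released. Transcription of these genes is driven by the heat-shock factor Hsf1, which binds arrays of the letters GAA in alternating orientation and is held inactive in unstressed cells.

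Hspa1a (ENSMUSG00000091971, chromosome 17, 34969190 to 34972156, minus strand, GRCm38) and Hspa1b (ENSMUSG00000090877, chromosome 17, 34956436 to 34959238, minus strand) are neighbouring genes. Their coding sequences were 99.4% identical over 1929 aligned positions, whereas the parts after the stop codon were 43.9% identical. Reads from the shared part cannot be assigned to 1 of the 2 genes with certainty, so the sum is the safer quantity. The 250 bases before each start (RefSeq, GRCm38.p6) are shown because these 2 genes define the cells and their promoters are nearly the same. Capitals mark the 2-unit heat-shock element GAANNTTC or TTCNNGAA, searched on both strands.
Hspa1a promoter, chr17:34972157-34972406, minus strand: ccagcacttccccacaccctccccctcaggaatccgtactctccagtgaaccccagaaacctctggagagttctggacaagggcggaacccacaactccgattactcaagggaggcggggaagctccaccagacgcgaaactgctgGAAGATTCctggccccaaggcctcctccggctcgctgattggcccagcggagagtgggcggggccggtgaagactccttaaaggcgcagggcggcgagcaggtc
Hspa1b promoter, chr17:34959239-34959488, minus strand: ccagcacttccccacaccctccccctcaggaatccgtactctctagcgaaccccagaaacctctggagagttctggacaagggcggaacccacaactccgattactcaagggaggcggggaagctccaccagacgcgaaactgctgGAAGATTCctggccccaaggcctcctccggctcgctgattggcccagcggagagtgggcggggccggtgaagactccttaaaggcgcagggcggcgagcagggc
Hsph1 site, chr5:149636351-149636380, minus strand: gggtagaatctTTCTCGAAggctcgagaag
Hspe1 site, chr1:55088053-55088082, plus strand: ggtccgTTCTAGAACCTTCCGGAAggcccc

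The Hspa1a and Hspa1b windows differed at 3 of 250 positions (C44T, T47C and T249G, counted from the first base shown, Hspa1a first) and each held 1 match, GAAGATTC. The Hsph1 site lies before the RefSeq start and overlaps the first bases of the GENCODE vM21 gene (ENSMUSG00000029657). The Hspe1 site held 3 overlapping 2-unit matches. They include 2 matches to a 3-unit element, which is GAANNTTC followed by NNGAA, read on either strand. Neither of the 2 windows listed for Dnajb1 held a match to either motif. Among windows of this length for 27025 genes, GAANNTTC was found in 7.73%, TTCNNGAA in 8.11% and the 3-unit element in 0.514%. Among 80 matched genes of the chaperone lists used below, the shares were 13.8%, 12.5% and 3.75%. A match is a description of the letters and not evidence of binding.

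Heat-shock-high cells made up 169 of 6243 Cd3e cells of the B16-Ova pool, or 2.71% (95% Clopper-Pearson interval 2.32 to 3.14%), and 21 of 7870 of the MC38-Ova pool, or 0.267% (0.165 to 0.408%). The intervals of the 2 pools did not overlap. The same order held at each other threshold read: at least 1 UMI was found in 23.2% and 9.97% of cells, at least 3 UMIs in 9.74% and 1.37%, at least 30 in 1.39% and 0.165%, and at least 60 in 0.705% and 0.0635%. Over all Cd3e cells the summed Hspa1a and Hspa1b level was 195 UMIs per 1000000 (CPM) for B16-Ova and 32.0 CPM for MC38-Ova. The heat-shock-high cells held 68.2% and 43.3% of these UMIs, while 76.8% and 90.0% of the Cd3e cells held none. Whether the pools differ through the tumour, the mice, or the handling of 1 tube cannot be told apart in this design.

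**Figure D1:**
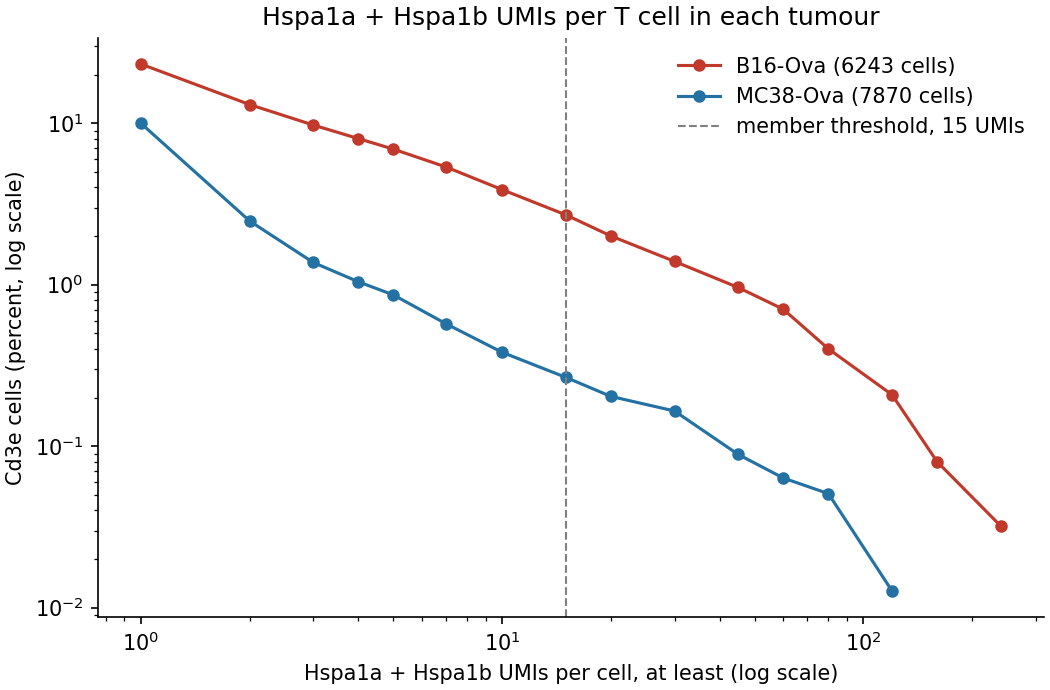
Share of Cd3e cells (percent, log axis) that held at least the number of Hspa1a and Hspa1b UMIs on the x axis (log axis), in 6243 B16-Ova and 7870 MC38-Ova cells. The dashed line is the threshold of 15 UMIs, where the shares were 2.71% and 0.267%, and the B16-Ova curve lies above the MC38-Ova curve at every plotted value.

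Among the 169 B16-Ova cells the sum of Hspa1a and Hspa1b ran from 15 to 354 UMIs with a median of 30, and among the 21 MC38-Ova cells from 15 to 152 with a median of 35. Relative to the RNA of the cell, the median was 31.5 per 10000 UMIs in B16-Ova (range 2.24 to 412) and 27.1 in MC38-Ova (6.65 to 189). A deep cell could thus pass the threshold with a small fraction of its RNA, and the highest cell stood at 412 per 10000 UMIs. Hspa1a contributed 70.0% of the summed UMIs in B16-Ova and 62.8% in MC38-Ova. Every heat-shock-high cell held Hspa1a and 3 cells of B16-Ova held no Hspa1b. At the threshold, 9 B16-Ova cells stood at 15 UMIs and 14 at 14 UMIs, and 2 and 1 in MC38-Ova, so cells lay directly on both sides of the cut. Whether the heat-shock-high cells form a separate type was not tested.

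The cells were deep. The median was 11035 RNA UMIs in heat-shock-high and 6221 in comparison cells of B16-Ova, and 11714 and 6581.5 in MC38-Ova. Within B16-Ova the share past the threshold was 1.88% at 2000 to 3999 RNA UMIs, 1.76% at 4000 to 7999, 3.33% at 8000 to 15999 and 6.05% at 16000 or more, as a threshold on raw UMIs favours deep cells. When every cell with at least 4000 UMIs was thinned to 4000, which left out 1549 shallower B16-Ova and 1833 shallower MC38-Ova cells, 52 of 4694 B16-Ova cells (1.11%) and 8 of 6037 MC38-Ova cells (0.133%) still held 15 or more. At 5 or more thinned UMIs, a setting chosen after seeing the data, the shares were 4.05% and 0.431%. The B16-Ova share was the higher one in each of these versions. Mitochondrial UMIs took a median of 1.32% in heat-shock-high and 1.51% in comparison cells of B16-Ova, and 1.16% and 1.54% in MC38-Ova. At 4000 UMIs the cells detected nearly the same number of genes, with B16-Ova medians of 1590 and 1588 and MC38-Ova medians of 1597 and 1582.

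The rule required Cd3e, so T cell identity was read on genes it did not use. Cd3d and Cd3g, further subunits of the CD3 complex, stood at 992 and 1173 CPM in heat-shock-high and at 1101 and 1185 CPM in comparison cells of B16-Ova. In MC38-Ova all 21 heat-shock-high cells held both. Trac, the constant part of the T cell receptor alpha chain, stood at 253 against 268 CPM in B16-Ova, and the MC38-Ova values for Trac were 252 and 248 CPM. Dnajb1 and Hsph1, the markers outside the rule, are given below. Among barcodes with no Cd3e UMI, whose cell type was not tested, 7 of 342 in B16-Ova (2.05%) and 3 of 537 in MC38-Ova (0.559%) reached 15 UMIs. Of the barcodes with both hashtags and Cd3e, which hold cells of both pools, 52 of 2354 (2.21%) did so.

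Each cell was given a status from its UMIs: CD8 (Cd8a or Cd8b1, no Cd4 or Foxp3), CD4 (Cd4, without CD8 genes or Foxp3), Foxp3 (the regulatory T cell factor, without CD8 genes), mixed (CD8 genes together with Cd4 or Foxp3) and none. In B16-Ova, 51 of 2105 CD8 cells (2.42%, 1.81 to 3.17%), 23 of 700 CD4 cells (3.29%, 2.09 to 4.89%) and 12 of 750 Foxp3 cells (1.60%, 0.829 to 2.78%) were heat-shock-high. The 3 intervals overlapped, and the differences between the shares were not tested, so no order among these statuses is read. The mixed status gave 67 of 1748 cells (3.83%, 2.98 to 4.84%) and the status none 16 of 940 (1.70%, 0.976 to 2.75%). In MC38-Ova the counts were 2 of 2950 CD8 cells (0.0678%, 0.00821 to 0.245%), 2 of 692 CD4 cells (0.289%, 0.0350 to 1.04%), 7 of 885 Foxp3 cells (0.791%, 0.319 to 1.62%) and 10 of 2133 mixed cells (0.469%, 0.225 to 0.860%). No cell of 1210 with the status none was heat-shock-high there, with a Clopper-Pearson upper limit of 0.304% (0.248% by a floor of 3 counts). The MC38-Ova interval of Foxp3 cells lay above that of CD8 cells, on 7 and 2 cells, but at 5 or more UMIs after thinning to 4000 the intervals overlapped (1.05%, 0.424 to 2.15%, against 0.257%, 0.103 to 0.529%). The 7 Foxp3 cells held 15 to 38 UMIs of Hspa1a and Hspa1b, fewer than either CD8 cell, at 65 and 86. For CD8 cells the B16-Ova interval lay above the MC38-Ova one, and for Foxp3 cells the intervals of the 2 pools overlapped. At 5 or more thinned UMIs they no longer did for Foxp3 cells, at 4.64% (3.08 to 6.68%) for B16-Ova and 1.05% for MC38-Ova.

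**Figure D2:**
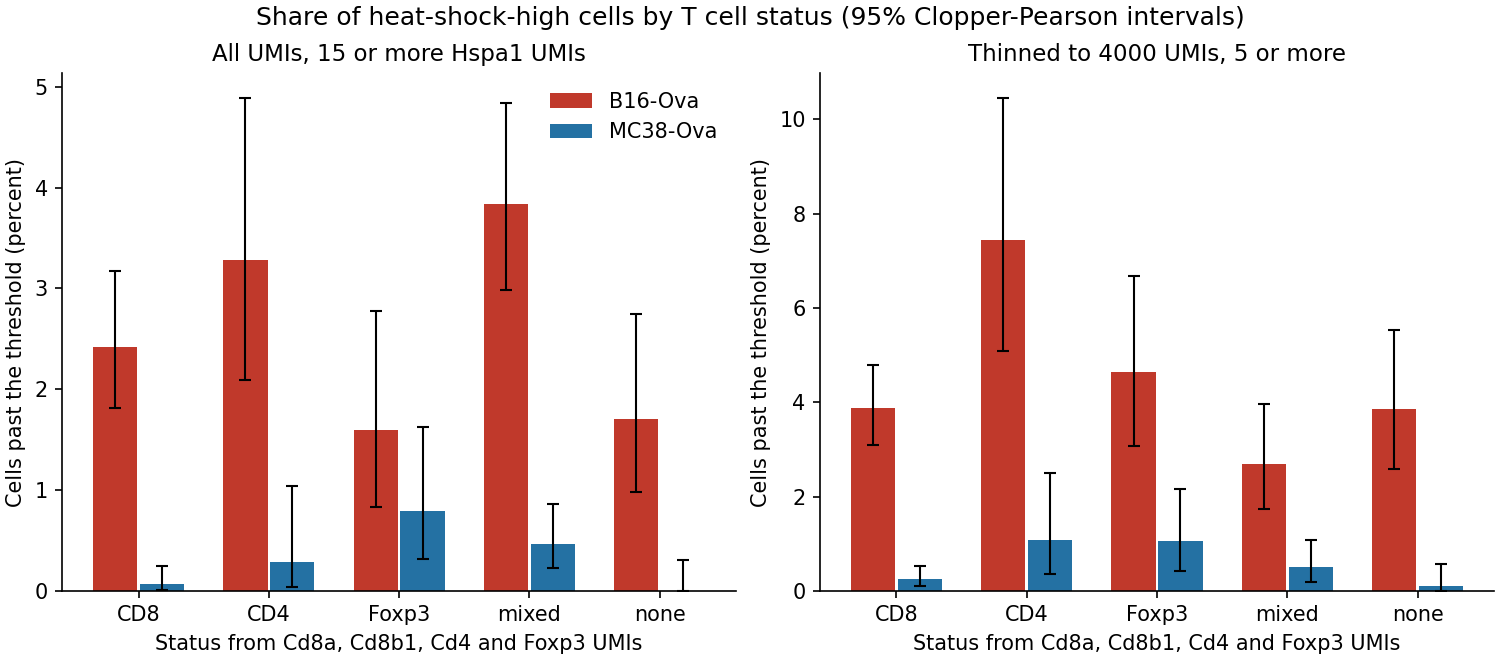
Percent of Cd3e cells past the threshold by status, in B16-Ova and MC38-Ova, from all UMIs (left, 15 or more) and after thinning to 4000 UMIs (right, 5 or more). Bars are shares and error bars are 95% Clopper-Pearson intervals. The mixed status has the highest bar in B16-Ova at the left, 3.83%, and the lowest at the right, 2.69%.

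The mixed cells were the deepest, with a median of 25496 RNA UMIs in heat-shock-high and 11460 in comparison cells of B16-Ova. They made up 39.6% of the heat-shock-high and 27.0% of the comparison cells of that pool. After thinning to 4000 UMIs the status makeup was closer: 45.6% of 147 heat-shock-high and 44.7% of 4175 comparison cells of B16-Ova were CD8, 11.6% and 8.26% CD4, 11.6% and 12.6% Foxp3, and 21.1% and 18.7% mixed, with 95% intervals that overlapped for each of these. At 5 or more thinned UMIs the B16-Ova shares became 3.87% of CD8, 7.44% of CD4, 4.64% of Foxp3 and 2.69% of mixed cells. The CD4 interval (5.08 to 10.5%) then lay above that of CD8 cells (3.09 to 4.79%), which it did not at the raw threshold. The score of the doublet caller Scrublet, with a range from 0 to 1, had a median of 0.348 in heat-shock-high and 0.279 in comparison cells of B16-Ova, and 0.394 and 0.289 in MC38-Ova. Doublets of 1 pool carry 1 hashtag and were not removed from the main values, so cells counted here as 1 may be more than 1, and the part of doublets in the mixed status was not tested.

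Genes were compared by the CPM of their summed UMIs, as a ratio of heat-shock-high over comparison cells in each pool, among 11516 genes whose 4 sums held 100 UMIs or more. Of these, 70 (0.608%) were at least 2-fold higher and 396 (3.44%) at least 2-fold lower in both pools. The 70 include Hspa1a and Hspa1b, which chose the cells, and without them 68 of 11514 genes were higher. Shares of all genes that were higher include these 2 genes throughout. Most of the lower genes rest on little RNA, as 379 of the 396 had no UMI in the 21 MC38-Ova cells. With a level of at least 20 CPM in any of the 4 sums, 17 genes, Hspa1a and Hspa1b among them, were higher and 11 lower. Some of them pass this filter only through the group where they are high. Clec4d, Basp1, Tgfbi, Tgm2 and Alox5ap pass it only through the MC38-Ova heat-shock-high cells, and C1qc only through the heat-shock-high cells of both pools. The same holds for some chaperones. Zfand2a passes only through the heat-shock-high cells of both pools (25.4 and 41.0 CPM, against 10.2 and 12.5 CPM in comparison cells). Hspb1 passes only through those of B16-Ova (86.5 CPM). Hspa1a and Hspa1b, which chose the cells, also pass only through heat-shock-high cells. Of the lower genes, Pmel, Mlana, Tyrp1, Hbb-bs, Ptgds, Cd63, Sparc, Ly6c1 and Ifit3b pass it only through comparison cells. With 3 counts in place of a sum of 0, the median log2 ratio over all genes stood at -0.04 for B16-Ova and 0.15 for MC38-Ova. In MC38-Ova 5241 of 11514 genes besides Hspa1a and Hspa1b had a ratio above 1, so the positive sign rests on this floor. The 7 chaperone lists held 93 measured genes besides Hspa1a and Hspa1b, of which 5 were at least 2-fold higher in both pools, namely Hsph1, Dnajb1, Hsp90aa1, Zfand2a and Hspb1. At 1.5-fold it was 7 of 93, beside 1.62% of all genes, and 3 were 1.5-fold lower in both pools, beside 5.64%. Within B16-Ova 11 of the 93 were 1.5-fold higher, beside 4.05% of all genes. Within MC38-Ova it was 15 of the 93, beside 17.2% of all genes, so that count was near the background. The counting interval lay above 1 in both pools for 10 of the 93, beside 1.24%. As the cells were chosen on the same RNA, nothing is read from these counts.

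Hspa1a and Hspa1b, which chose the cells, stood at 1990 and 853 CPM in heat-shock-high and 10.5 and 9.70 CPM in comparison cells of B16-Ova. In MC38-Ova they stood at 1880 and 1114 CPM against 6.98 and 4.46 CPM.

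Hsph1, the HSP110 nucleotide exchange factor, had the highest ratio of the widely detected chaperones. Per B16-Ova cell it ran from 0 to 34 UMIs with a median of 4 in heat-shock-high cells, and from 0 to 33 with a median of 0 in comparison cells. It was detected in 84.6% and 35.2% of these cells, so the groups overlap cell by cell while their middles differ. The level was 327 against 70.8 CPM, a ratio of 4.62 (95% counting interval 4.29 to 4.96), and 4.83 when the ratio was formed within bins of RNA UMIs. In MC38-Ova it was 341 against 46.4 CPM, a ratio of 7.34 (6.00 to 8.89). Of the other HSP70 family genes, Hspa8, the constitutive HSP70 of the cytosol, stood at 3060 against 2220 CPM in B16-Ova (ratio 1.38) and at 3354 against 2142 in MC38-Ova (1.57). Hspa9, the mitochondrial HSP70, had ratios of 0.973 and 0.839, and Hspa4, another HSP110 relative, of 1.07 and 1.06.

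Dnajb1, the J-domain partner of inducible HSP70, ran from 0 to 80 UMIs per heat-shock-high cell of B16-Ova with a median of 6, and from 0 to 21 with a median of 1 in comparison cells. It was detected in 91.7% of the former and 59.4% of the latter. The level was 480 against 137 CPM, a ratio of 3.49 (3.29 to 3.70), and 3.95 within bins of RNA UMIs. In MC38-Ova all 21 cells held Dnajb1, at 1 to 21 UMIs with a median of 4, and the level was 429 against 128 CPM, a ratio of 3.35 (2.80 to 3.96). The 2 pools thus gave overlapping intervals for Dnajb1 and not for Hsph1. Dnaja1, a farnesylated J-domain protein, stood at 714 against 397 CPM in B16-Ova (ratio 1.80) and 738 against 397 CPM in MC38-Ova (1.86).

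Other J-domain genes were mixed. Dnaja4 and Dnajb4 had ratios of 2.25 and 1.81 in B16-Ova, on 116 and 83 UMIs, and 1.16 and 2.05 in MC38-Ova, on 5 and 8 UMIs, where both intervals span 1. In B16-Ova 4 of the 24 J-domain genes were at least 1.5-fold higher (4.05% of all genes were) and 2 at least 1.5-fold lower (9.42% of all genes were). The median log2 ratio of the list was -0.01. Dnajc15, a mitochondrial J-domain protein, was at 126 against 263 CPM in MC38-Ova (ratio 0.479) and at 190 against 195 CPM in B16-Ova (0.970).

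Hsp90aa1, the stress-inducible cytosolic HSP90, stood at 1219 against 475 CPM in B16-Ova, a ratio of 2.57 (2.48 to 2.66), and at 1357 against 399 CPM in MC38-Ova, a ratio of 3.40 (3.08 to 3.74). Its median was 15 UMIs in heat-shock-high and 2 in comparison cells of B16-Ova, and 11 and 2 in MC38-Ova. Hsp90ab1, the constitutive form, had lower ratios of 1.47 and 1.68 on a higher level of 3708 and 3549 CPM. Among the HSP90 co-chaperones, Cacybp was at 1.40 and 1.28, Ahsa1 at 1.25 and 1.43 and Stip1 at 1.17 and 1.51, while Ptges3 and Cdc37 lay within 0.1 of 1 in both pools.

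Hspe1 and Hspd1, which encode the mitochondrial HSP10 and HSP60 and share 1 promoter region, stood at 698 against 386 CPM (ratio 1.81, 1.73 to 1.90) and 405 against 244 CPM (1.66, 1.56 to 1.77) in B16-Ova. In MC38-Ova Hspe1 was at 467 against 328 CPM (1.42, 1.20 to 1.67) and Hspd1 at 158 against 173 CPM (0.913, 0.677 to 1.20). Hspd1 was thus higher in B16-Ova, while its interval spans 1 in MC38-Ova. Zfand2a, an arsenite-inducible zinc-finger protein, had ratios of 2.48 and 3.27. Bag3, a co-chaperone that links HSP70 to autophagy, had 2.00 (1.65 to 2.41) in B16-Ova and 1.36 (0.546 to 2.81) in MC38-Ova, on 7 UMIs.

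Hspb1, the small heat-shock protein HSP27, had the largest ratio of any chaperone outside the rule, 40.0 (31.8 to 50.4) in B16-Ova and 9.47 (2.52 to 25.1) in MC38-Ova. This came from few cells: 21 of 169 heat-shock-high cells of B16-Ova held 245 UMIs of it, 1 of them with 28.2% of the total, and in MC38-Ova 1 cell held all 4 UMIs. Of the comparison cells, 0.816% and 0.580% held any. In B16-Ova the CD8 cells held 119 of the UMIs and the mixed cells 124, the Foxp3 cells 2 and the CD4 cells none. Cryab, another small heat-shock protein, had 5 UMIs in the heat-shock-high cells of B16-Ova and none in those of MC38-Ova.

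**Figure D3:**
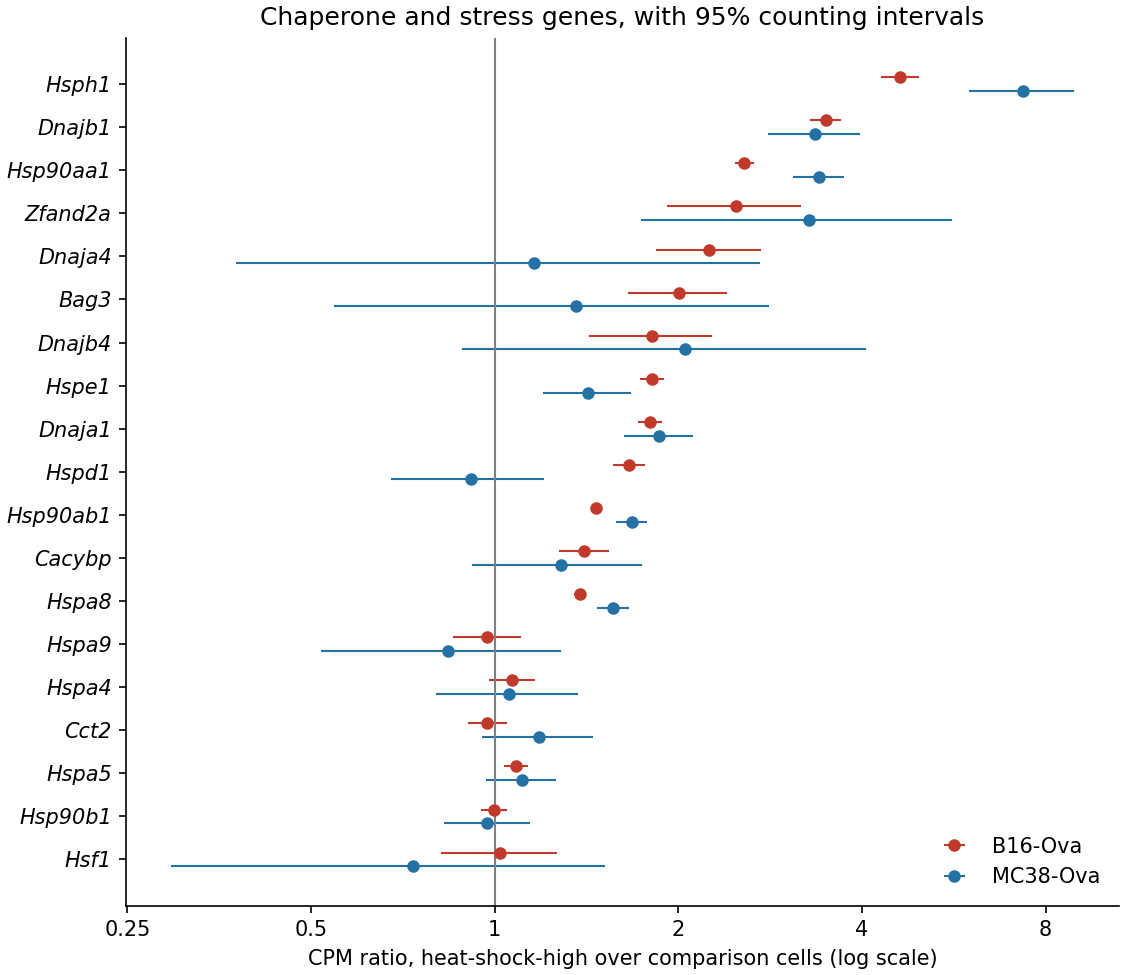
Ratio of CPM, heat-shock-high over comparison cells (log axis), for 19 chaperone and stress genes in B16-Ova and MC38-Ova, with 95% counting intervals as bars and a line at a ratio of 1. Hsph1, Dnajb1, Hsp90aa1 and Zfand2a lie above 1.5 with their whole intervals in both pools, whereas Hspa9, Hspa4, Cct2, Hsp90b1 and Hsf1 have intervals that span 1.

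Genes of other protein quality-control systems are given next. The transcript of the factor itself, Hsf1, was at 31.4 against 30.8 CPM in B16-Ova (ratio 1.02, 0.816 to 1.27). None of the 13 measured genes of the cytosolic chaperonin and prefoldin list reached 1.5-fold in either pool, with a median log2 ratio of 0.13 for B16-Ova and 0.02 for MC38-Ova. Of all genes, 4.05% were 1.5-fold higher in B16-Ova and 17.2% in MC38-Ova. Of 25 proteasome genes none was 1.5-fold higher in either pool and 2 were 1.5-fold lower in MC38-Ova, where 27.5% of all genes were. The median log2 ratio of the proteasome list was 0.03 in B16-Ova, while in MC38-Ova it was -0.28, with 4 of 25 genes above 1 and 6 intervals below 1. Of all 11514 genes besides Hspa1a and Hspa1b, 5241 ratios were above 1 and 428 intervals below 1 in MC38-Ova. None of 20 genes for chaperones of the endoplasmic reticulum and the unfolded-protein response reached 1.5-fold in either direction. Of all genes, 4.05% were 1.5-fold higher and 9.42% lower in B16-Ova, and 17.2% and 27.5% in MC38-Ova. Among them, Hspa5 (BiP) had ratios of 1.08 and 1.11 and Hsp90b1 of 0.998 and 0.973.

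Within B16-Ova the chaperones were graded with Hspa1a and Hspa1b, across cells with 0 to 2, 3 to 14, 15 to 29, 30 to 59 and 60 or more UMIs (5635, 439, 82, 43 and 44 cells). Hsph1 stood at 70.8, 127, 202, 341 and 606 CPM. Hsp90aa1 stood at 475, 622, 807, 1305 and 2095 CPM. Both therefore increased at each step, with 95% Poisson intervals that did not overlap between neighbours. Dnajb1 stood at 137, 205, 312, 701 and 625 CPM, the last 2 with overlapping intervals. Dnaja1 went from 397 to 1138 CPM and Hspe1 from 386 to 955 CPM between the lowest and the highest bin. Hspa5 stayed between 646 and 793 CPM without an order. The median depth of the bins was 6221, 8283, 11076, 11843 and 9067 RNA UMIs. In the 87 MC38-Ova cells with 3 to 14 UMIs, Hsph1 was at 100 and Hsp90aa1 at 740 CPM, between the comparison and the heat-shock-high cells of that pool. Among the 21 heat-shock-high cells of MC38-Ova an order held for some genes only. In the cells with 15 to 29, 30 to 59 and 60 or more UMIs (8, 8 and 5 cells) Hsp90aa1 stood at 927, 976 and 2844 CPM, and Hspe1 at 345, 482 and 584 CPM. Hsph1 stood at 582, 78.3 and 689 CPM. Dnajb1 stood at 404, 193 and 1048 CPM in them, so these last 2 genes were lowest in the middle bin.

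Across the 169 heat-shock-high cells of B16-Ova, the summed Hspa1a and Hspa1b per UMI had a Spearman correlation of 0.494 with Dnajb1 per UMI, 0.440 with Hsp90aa1, 0.376 with Hsph1 and -0.06 with Hspb1. These points share the RNA UMIs of each cell as a denominator, with which the Hspa1a and Hspa1b level itself correlated at -0.790, and they come from 1 capture.

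**Figure D4:**
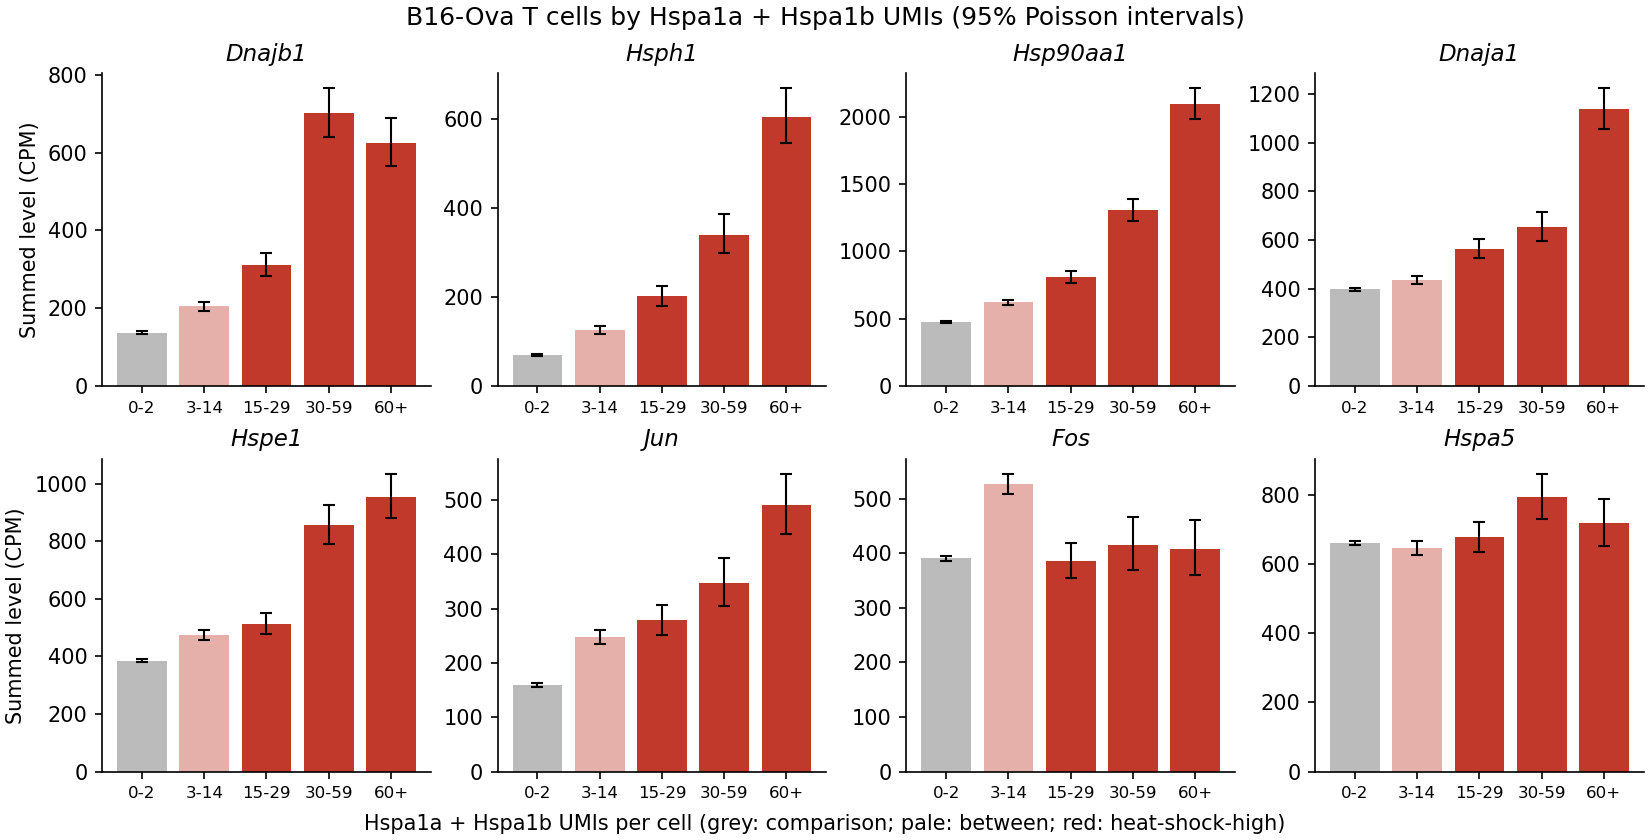
Summed level in CPM (y axis, starting at 0) of 8 genes in B16-Ova T cells grouped by their Hspa1a and Hspa1b UMIs (x axis), with 95% Poisson intervals. Grey bars are comparison cells, pale bars cells with 3 to 14 UMIs and red bars heat-shock-high cells. Hsph1 and Hsp90aa1 increase at every step, while Hspa5 stays between 646 and 793 CPM and Fos is highest, at 527 CPM, in the cells with 3 to 14 UMIs.

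The same genes were higher in each status of B16-Ova. Hsph1 stood at 478 against 70.9 CPM in CD8 cells (ratio 6.75, 5.94 to 7.64), 459 against 98.4 in CD4 cells (4.66, 3.52 to 6.09) and 401 against 56.8 in Foxp3 cells (7.06, 5.18 to 9.46). Dnajb1 had ratios of 4.44 (3.96 to 4.96), 6.35 (5.35 to 7.51) and 3.72 (2.85 to 4.80) in these statuses. In the 16 cells of status none it had the highest ratio, 9.76 (8.10 to 11.7), at 1820 CPM, and Hsph1 had 6.55 (4.73 to 8.90). Hsp90aa1 had ratios of 2.80, 3.64 and 3.01 in CD8, CD4 and Foxp3 cells and 6.14 (5.38 to 6.99) in status none. Dnaja1 had 1.93 (1.76 to 2.12) in CD8 cells and 3.21 (2.79 to 3.67) in CD4 cells, with intervals that did not overlap. The mixed cells, the deepest, gave lower ratios for each of them: 3.64 for Hsph1, 2.52 for Dnajb1, 2.18 for Hsp90aa1 and 1.54 for Dnaja1. In the 7 Foxp3 cells of MC38-Ova, Hsph1 was at 439 against 37.0 CPM (11.9, 7.78 to 17.5) and Dnajb1 at 439 against 123 CPM (3.57, 2.37 to 5.17). Without mixed cells and cells of 16000 or more RNA UMIs, an alternative chosen after seeing the data, the mean log2 ratio of the 2 pools was larger: 3.42 in place of 2.54 for Hsph1, 2.68 in place of 1.77 for Dnajb1 and 2.57 in place of 1.56 for Hsp90aa1.

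Immediate early genes, which respond within minutes to receptor signals and stress, did not move 1 way. Of 36 genes, 4 in B16-Ova (4.05% of all genes) and 5 in MC38-Ova (17.2%) were at least 1.5-fold higher, 2 of them in both pools (1.62%). At least 1.5-fold lower were 1 in B16-Ova (9.42%) and 7 in the MC38-Ova pool (27.5%). The median log2 ratio was -0.10 and -0.15. Within bins of RNA UMIs the B16-Ova median was 0.13, so its sign depended on depth. Those in both pools were Jun and Atf3. Jun, an AP-1 subunit, stood at 343 against 160 CPM in B16-Ova (ratio 2.15, 2.01 to 2.30) and at 410 against 153 CPM in MC38-Ova (2.68, 2.23 to 3.18), and in B16-Ova it was 4.45 (3.67 to 5.36) within CD4 and 2.31 (2.01 to 2.64) within CD8 cells. Atf3, a stress-induced repressor of the ATF family, stood at 40.9 against 21.5 CPM and at 114 against 44.1 CPM, from 35 of 169 and 7 of 21 cells. In B16-Ova its ratio was 2.80 (1.84 to 4.12) within CD8, 1.10 (0.435 to 2.34) within CD4 and 4.99 (2.77 to 8.44) within Foxp3 cells. The 7 Foxp3 cells of MC38-Ova held none, and 33 of its 36 UMIs there lay in the 8 cells with 30 to 59 Hspa1a and Hspa1b UMIs. Other members did not follow: Fos had ratios of 1.02 and 1.25, Junb of 0.951 and 0.781, Egr1 of 0.757 and 0.709, and Nr4a1, a reporter of T cell receptor signalling, of 0.914 and 0.715. Klf2, a quiescence and trafficking factor, was at 447 against 297 CPM in B16-Ova (1.51), with a ratio of 2.20 within bins of RNA UMIs.

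The checkpoint genes Pdcd1, Havcr2 and Lag3 had ratios of 1.03, 0.962 and 0.942 in B16-Ova, and none of 16 measured genes of the exhaustion list was 1.5-fold higher or lower there, beside 4.05% and 9.42% of all genes. Of 12 genes of the naive and memory list, 1 was 1.5-fold higher (4.05% of all genes) and 3 lower (9.42%) in B16-Ova, and 2 were lower in both pools (5.64%). Among these, Klf3, a repressor of the KLF family, had ratios of 0.635 and 0.664 and Bach2, a repressor that maintains naive T cells, of 0.652 and 0.417. The median log2 ratio of that list in B16-Ova was -0.31, but 0.12 within bins of RNA UMIs. Gzmb, a granzyme of cytotoxic cells, had 1.17, Prf1, the pore-forming perforin, 0.997 and the proliferation marker Mki67 0.934. In MC38-Ova the ratios of Gzmb (1.98) and Foxp3 (1.89) were higher, beside a status makeup of 33.3% Foxp3 cells in heat-shock-high and 11.2% in comparison cells. Within the Foxp3 status of that pool (7 heat-shock-high cells) the ratios were 2.12 (1.94 to 2.32) for Gzmb and 1.60 (1.17 to 2.14) for Foxp3. Within the Foxp3 status of B16-Ova (12 heat-shock-high cells) they were 0.891 (0.741 to 1.06) for Gzmb and 0.498 (0.330 to 0.722) for Foxp3. The metallothionein Mt1 was at 1278 against 150 CPM in MC38-Ova (8.49, 7.67 to 9.38; 14 of 21 cells) and at 239 against 176 CPM in B16-Ova (1.35), where it was 1.02 within bins of RNA UMIs.

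Outside the chaperones, the 15 genes with the highest ratios in both pools were mostly carried by a few cells. Of these, Clec4d, Basp1, Tgfbi, Vegfa, C1qc, Tgm2, Alox5ap and Ccdc184 reached 20 CPM only in heat-shock-high cells, the group where they are high. In 11 of the 15, 1 cell held at least 50% of the UMIs of its pool. Several are macrophage genes: C1qb and C1qc, complement components, stood at 55.8 and 38.5 CPM in heat-shock-high against 12.9 and 9.62 CPM in comparison cells of B16-Ova, in 13 and 8 of 169 cells, and Arg1, arginase, had 95 UMIs in 1 cell of MC38-Ova. The macrophage and monocyte list of 9 genes summed to 200 against 82.5 CPM in B16-Ova, with a UMI in 23.1% of heat-shock-high and 20.2% of comparison cells and a range of 0 to 5143 CPM per heat-shock-high cell, all 9 genes being detected. In MC38-Ova it summed to 189 against 122 CPM, with 1 gene at 0, and 1 cell held 90% of the 60 UMIs. The list did not move as 1. In B16-Ova Csf1r was lower (0.706 against 0.850 CPM), Lyz2 was at 18.3 against 16.6 CPM, and the rest of the list was higher. In MC38-Ova Lyz2 (3.15 against 20.3 CPM) and Adgre1 (0 against 0.974 CPM) were lower and the rest of the list was higher. Without the barcodes of highest Scrublet score the mean log2 ratio of the 2 pools was 0.40 in place of 2.38 for Arg1, 0.61 in place of 1.88 for Basp1 and 0.93 in place of 1.54 for C1qb. For Arg1 and C1qb the heat-shock-high cells of at least 1 pool then held no UMI. There 3 counts stand in for the 0, so these values of Arg1 and C1qb are not measured ratios. At 30 UMIs it was 0.23 in place of 1.62 for C1qc and 0.31 for C1qb. Sap30, a subunit of a histone deacetylase complex, was more widely spread, in 58 of 169 and 11 of 21 cells, at 45.5 against 22.7 CPM (2.01) and 75.7 against 23.9 CPM (3.17).

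The 13 genes that were lower by the same rule included melanocyte genes and a globin. Pmel, Dct, Mlana and Tyrp1, all of the pigment programme, were at 2.82, 2.47, 1.76 and 3.18 CPM in heat-shock-high and 74.8, 70.2, 39.5 and 41.3 CPM in comparison cells of B16-Ova. In the comparison cells 1% of the cells held between 89.8% and 95.7% of the UMIs of these 4 genes, so few cells set these levels. Against the cells with 3 to 14 Hspa1a and Hspa1b UMIs the mean log2 ratios were 0.21 for Pmel (-2.18 to 2.14), 0.78 for Dct (-1.02 to 2.49) and 1.04 for Tyrp1 (-2.78 to 4.80). Without mixed and deep cells they were 0.27 for Pmel (-3.33 to 2.21) and 0.56 for Dct (-1.70 to 2.06). All of these intervals span 0, so the direction was not determined in these settings. Hbb-bs, a beta-globin, had 1 UMI in the heat-shock-high and 2726 in the comparison cells of B16-Ova, 99.2% of them in 1% of the cells.

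Between the 2 pools, the heat-shock-high cells had similar levels of the leading chaperones. MC38-Ova over B16-Ova, the ratio was 0.895 (0.745 to 1.07) for Dnajb1, 1.04 (0.846 to 1.27) for Hsph1, 1.03 (0.899 to 1.18) for Dnaja1 and 1.11 (1.00 to 1.23) for Hsp90aa1. Hspe1 (0.669, 0.562 to 0.791) and Hspd1 (0.389, 0.287 to 0.516) were lower in the MC38-Ova cells, as they were among comparison cells (0.851 and 0.708). Of 4023 genes with at least 100 UMIs in the heat-shock-high cells, 80 (1.99%) were at least 2-fold higher and 141 (3.5%) at least 2-fold lower in MC38-Ova. With 21 cells, 1 cell can set such a value: 99.7% of the 334 Gzmf UMIs and 98.9% of the 95 Spp1 UMIs of the MC38-Ova cells lay in the same cell, of mixed status and 32795 RNA UMIs.

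The surface tags were measured apart from the RNA. L-Pha had a median of 724 UMIs (quartiles 251 and 1548) in heat-shock-high and 423 (242 and 904.5) in comparison cells of B16-Ova, and of 1010 (494 and 1314) and 389 (252 and 694) in MC38-Ova. The ratio of medians was 1.71 and 2.60, and the B16-Ova one was 1.08 (0.835 to 1.86) without the barcodes of highest Scrublet score. The tag moved with RNA depth in both groups of cells, and within bins of RNA UMIs the B16-Ova medians were 179 against 241 at 2000 to 3999, 249.5 against 321 at 4000 to 7999, 713 against 695 at 8000 to 15999 and 2487 against 1567.5 at 16000 or more. The order of the groups therefore changed with depth, and the median of the B16-Ova ratios over bins was 0.902. In MC38-Ova the medians were 210 (5 cells) against 330 at 4000 to 7999 and 1095.5 (12 cells) against 555 at 8000 to 15999. At 16000 or more they were 1915.5 (4 cells) against 1194. The intervals overlapped at 8000 to 15999 (494 to 1314 against 537 to 571), and none was formed for the bins of 5 and 4 cells. By status in B16-Ova the medians were 411 against 409 in CD8, 224 against 246 in CD4, 957 against 582 in Foxp3 and 2019 against 918 in mixed cells. Mgat5, the enzyme that makes the branch bound by L-Pha, was at 11.3 against 16.2 CPM in B16-Ova (0.699) and at 28.4 against 18.4 CPM in MC38-Ova, on 9 UMIs.

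**Figure D5:**
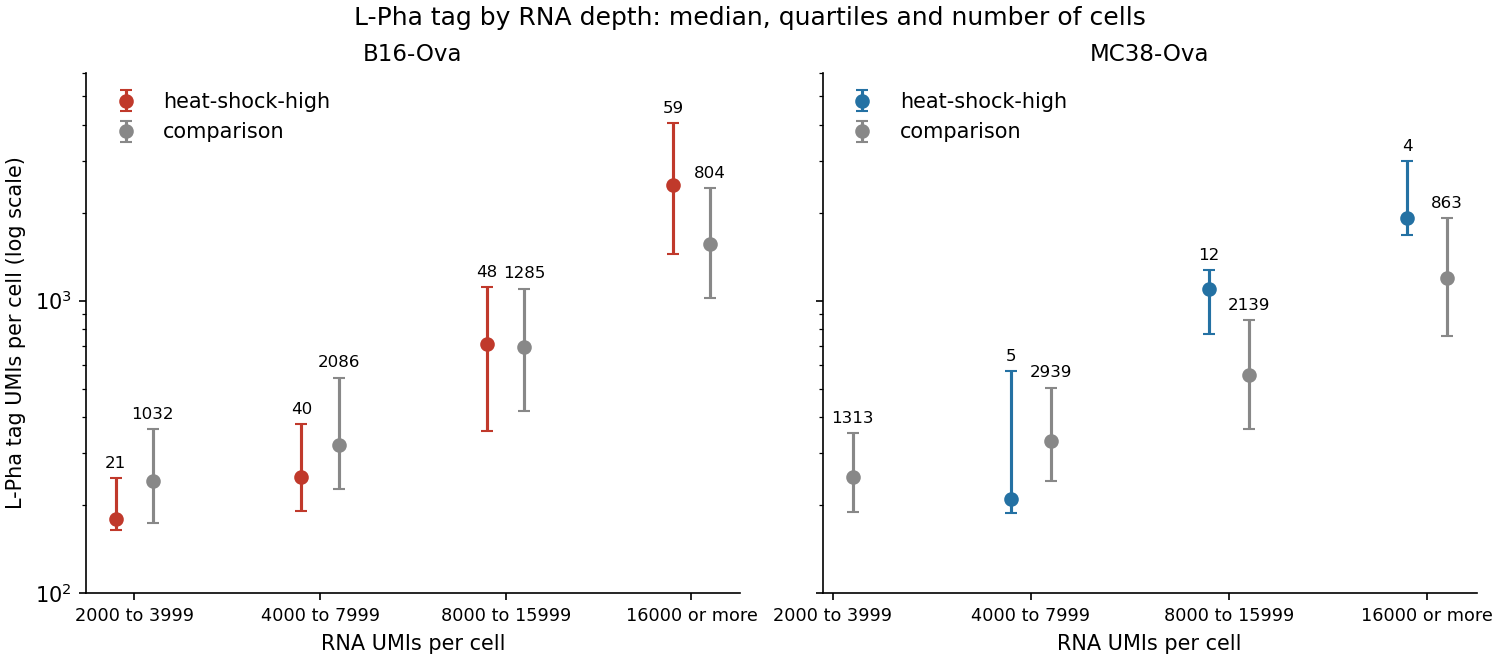
L-Pha tag UMIs per cell (log axis) by bin of RNA UMIs in B16-Ova (left) and MC38-Ova (right), as medians with quartile bars, with the number of cells above each. In B16-Ova the heat-shock-high median is below the comparison median in the 2 shallower bins (179 against 241, 249.5 against 321) and above it at 16000 or more (2487 against 1567.5).

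PD-1 had a median of 24 UMIs in heat-shock-high and 19 in comparison cells of B16-Ova, and 24 and 18 in MC38-Ova. Over bins of RNA UMIs with at least 5 heat-shock-high cells the median ratio was 0.946 and 1.02. This left out the 4 MC38-Ova cells at 16000 or more, at 39.5 against 29. In B16-Ova the medians from 2000 to 15999 were 14 against 16, 15 against 16 and 21 against 22, with overlapping intervals. At 16000 or more they were 47 against 36 (41 to 54 against 35 to 38). Whether the PD-1 order changes with depth was not tested. Tim-3 had medians of 22 and 21 in B16-Ova and 20 and 20 in MC38-Ova.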

How the data were processed

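The deposited matrix gives whole-number UMI counts per gene and tag for each barcode, unscaled as far as the values show. The submitters' processing notes name Cell Ranger 3.1.0, R 3.6.1, Seurat 3.1.0 and the mm10 genome, without saying which step used which. The annotation is not given in the sources used here. Barcodes were filtered and assigned to a tumour as stated above, from 1 matrix with 19912 distinct barcodes, of which 18429 passed the gene and mitochondrial filters and 14992 also had 1 hashtag (2388 had both). Free RNA of the 1 capture is shared by both pools. UMIs were summed per pool and group and divided by all RNA UMIs (CPM). Intervals of ratios are exact conditional binomial, those of shares Clopper-Pearson and those of medians order-statistic binomial. All are 95% and cover counting error only. For a share of 0 the 3-count floor is given beside the Clopper-Pearson upper limit. Ratios within bins pool over RNA-UMI bins with edges at 2000, 4000, 8000 and 16000.

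Chaperone genes could be named freely; of other genes, those with at least 20 CPM in any of the 4 sums, changed at least 1.5-fold the same way in each pool and within bins, up to 15 per direction by geometric mean. TCR, mitochondrial and ribosomal genes and numbered gene models were left out. Genes of the immediate early, endoplasmic reticulum, T cell programme and metal stress lists, and Gzmf and Spp1, were named outside this rule after their values were seen. Members, lists and rules were chosen with earlier results of these data known. The ratio script was tested on simulated data. Doublets were left in; removing the highest Scrublet scores (scanpy 1.11.5) was an alternative, as were edgeR 4.0.16 TMM and DESeq2 1.42.0 scaling factors, used only as scaling. The other alternatives changed the thresholds, the comparison cells and the status rule. T cell receptor sequences were not used here.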

Additional observations from a re-analysis of the deposited data

Results flagged for a closer look

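Barcodes without a Cd3e UMI lie outside the comparisons. In B16-Ova, 2.05% of them (7 of 342, 0.827 to 4.17%) held 15 or more Hspa1a and Hspa1b UMIs. Their cell type was not tested.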

How the results depend on the processing

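No paired analysis was possible because each tumour is 1 pool and the labels carry no replicate numbers. The limits are the 21 MC38-Ova cells, the raw-UMI threshold, which favours deep cells, and the undetected doublets of 1 pool. Where a value moved, the cause was not tested unless the setting itself shows it.

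The share of heat-shock-high cells in B16-Ova was 1.39% at 30 UMIs, 3.21% with a hashtag 10 times the other, 1.11% and 4.05% after thinning (15 and 5 UMIs) and 2.06% without mixed cells and cells of 16000 or more RNA UMIs. In MC38-Ova it was 0.165%, and 0.133% and 0.431% after thinning. Higher genes, counted with Hspa1a and Hspa1b, which chose the cells, numbered 12 against the cells with 3 to 14 UMIs, 119 from 10 UMIs, 186 at 1.5-fold and 29 with intervals beyond 1. Lower genes numbered 16, 2200, 649 and 12 in these settings, 682 at 30 UMIs and 640 without mixed and deep cells. TMM and DESeq2 scaling each gave 74 and 383.

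In B16-Ova the L-Pha ratio turned to 0.902 within bins, 0.945 per 1000 RNA UMIs and 0.877 without mixed and deep cells, and the PD-1 ratio to 0.946, 0.738 and 0.941. Per 1000 RNA UMIs, PD-1 in MC38-Ova was 0.831 and Tim-3 0.618 and 0.628; without mixed and deep cells Tim-3 in B16-Ova was 0.947. Mean log2 ratios reversed against the cells with 3 to 14 UMIs for Pmel (0.21), Ptgds (0.98), Tyrp1 (1.04), Dct (0.78), Gpnmb (1.38) and Hspd1 (-0.28), without mixed and deep cells for Pmel (0.27), Dct (0.56) and Gpnmb (1.03), and for Hspd1 (-0.014) with the hashtag at 10 times. With that hashtag rule no CD4 cell of MC38-Ova was heat-shock-high, so its status ratios have no value. The interval of Hspd1 against the cells with 3 to 14 UMIs lay below 0 (-0.566 to -0.0174). The intervals of the other reversed mean log2 ratios span 0, so their direction was not determined.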
